A study of Rattus norvegicus with 5 samples.

Results

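Neuropeptide Y (Npy) was measured by 1 probe, 21570807, the only one of 26857 on the array whose single gene symbol in the platform annotation is Npy. Of the arrayed probes 6104 carry 1 gene symbol in that annotation. The gene was chosen by the log2 signals and raw intensities of these same 5 arrays, so its levels are given as a description and without a test. Expression was measured on 5 arrays of sorted blood cells of the rat, labelled myeloid-derived suppressor cells (MDSCs), which are immature myeloid cells that can restrain T cells. The 3 tolerant arrays came from LEW.1A rats (haplotype RT1a) 100 days after they received a LEW.1W kidney (RT1u, mismatched at MHC classes I and II) from animals 8 to 12 weeks old, with both own kidneys removed on day 7 and tolerance brought about by the anti-CD28 antibody JJ319, which binds a costimulatory receptor of T cells. The 2 syngeneic arrays came from LEW.1A rats carrying a LEW.1A kidney, also at day 100; no antibody treatment is named for them, and the age and sex of the recipients are not given. The design text counts 3 recipients in each group. In both groups the cells were depleted of those bearing MHC class II or CD3 and then collected magnetically by CD80 and CD86, so the arrays report a mixture of cells, in which fewer cells of a type and less RNA per cell cannot be told apart. Nothing ties an array to 1 animal, so the spread between arrays may be technical.

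Npy is a short amidated peptide, cut from a longer precursor, that sympathetic nerves store and release together with noradrenaline. It belongs to a family with peptide YY (Pyy) and pancreatic polypeptide (Ppy) and acts through G protein-coupled receptors, several of which lower cyclic AMP. In blood it is known from rat megakaryocytes and platelets as well as from nerve endings, and cells of the immune system carry receptors for it. The surface peptidase DPP4 trims the peptide and shifts its choice of receptor.

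The gene lies at chr4:80212111-80219310 in the GRCr8 assembly and spans 7200 bases. Its promoter, 250 bases before and 50 after the RefSeq start, is shown with those of Hbb-b1 and Hbb, the beta globin genes whose values over the arrays were closest to those of Npy. Capitals mark matches, on either strand, to the GC box (GGGCGG), the TATA box (TATAAA), and a TATA-like run (ATAAAA). Capitals also mark the CCAAT box and, by the same token, the box called CACCC, both named by their letters. All were chosen after the Npy sequence had been seen.
Npy, chr4:80211861-80212160, + strand: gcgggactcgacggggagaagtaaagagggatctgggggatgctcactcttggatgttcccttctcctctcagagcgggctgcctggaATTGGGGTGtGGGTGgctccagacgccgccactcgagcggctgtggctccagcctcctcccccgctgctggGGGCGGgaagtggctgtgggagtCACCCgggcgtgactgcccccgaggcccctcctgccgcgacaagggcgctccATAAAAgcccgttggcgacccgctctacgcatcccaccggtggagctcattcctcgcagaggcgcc
Hbb-b1, chr1:167643471-167643770, - strand: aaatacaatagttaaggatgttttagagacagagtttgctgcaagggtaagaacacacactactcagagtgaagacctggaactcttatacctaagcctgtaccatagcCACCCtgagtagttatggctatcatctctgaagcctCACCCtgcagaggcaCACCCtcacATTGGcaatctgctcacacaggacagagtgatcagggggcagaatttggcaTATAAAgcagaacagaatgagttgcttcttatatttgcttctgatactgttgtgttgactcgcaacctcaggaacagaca
Hbb, chr1:167663672-167663971, - strand: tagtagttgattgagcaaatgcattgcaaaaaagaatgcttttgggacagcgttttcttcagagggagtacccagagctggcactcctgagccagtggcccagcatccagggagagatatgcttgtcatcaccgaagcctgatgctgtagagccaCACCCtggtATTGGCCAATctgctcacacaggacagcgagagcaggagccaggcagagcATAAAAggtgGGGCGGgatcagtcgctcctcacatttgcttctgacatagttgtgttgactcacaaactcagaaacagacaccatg
The Npy window holds 1 GC box at -91, 1 TATA-like run at -16, 1 CCAAT box at -162 and 3 CACCC boxes at -158, -152 and -68, counted from the start to the first base of each match. The CCAAT box and the first CACCC box, both on the opposite strand, overlap. Of 33469 RefSeq promoters of this length, 33.1% hold the GC box, 20.5% the TATA-like run, 37.5% the CCAAT box and 54.9% the CACCC box, so none of these letters is rare. The CCAAT and CACCC boxes also occur in both globin windows. Of the 10 named genes most like Npy, 8 have a promoter in the table, of which 7 hold a CACCC box, 4 a CCAAT box and 1 a GC box. The Npy window is 67.7% G and C, above 88.4% of the promoters, against 44.7% for Hbb-b1 and 51% for Hbb. These matches describe letters and not binding.

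Npy was bright on both syngeneic arrays and at background on all 3 tolerant arrays. Its raw intensity on tolerant arrays 1, 2 and 3 was 329, 674 and 1751. Its raw intensity was 124450 on syngeneic 1 and 1334905 on syngeneic 2. The groups did not overlap: the lower syngeneic intensity was 71.1 times the highest tolerant one. After quantile normalization, which gives all arrays the same distribution, the log2 signal was 8.52, 9.56 and 10.62 on the tolerant arrays. It was 16.70 and 20.05 on the syngeneic arrays. The mean was 9.57 ± 1.05 (SD, n = 3) for the tolerant group and 18.37 ± 2.37 (SD, n = 2) for the syngeneic group, which makes a difference, tolerant minus syngeneic, of -8.81 (SE 1.09 from the limma fit).

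**Figure D1:**
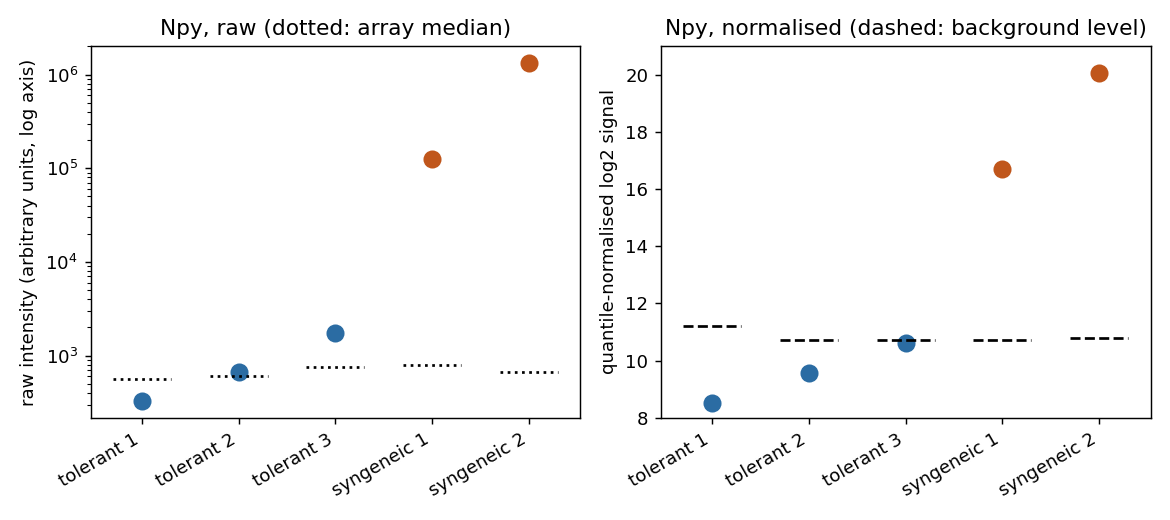
Npy on each of the 5 arrays. Left, raw intensity on a log axis, with each array's median as a dotted line; right, quantile-normalised log2 signal, with each array's background level as a dashed line. Both syngeneic points (16.70 and 20.05) lie far above the line and no tolerant point (8.52, 9.56 and 10.62) is above it.

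A background level was set on each array at the 95th percentile of 464 probes for olfactory receptors, which blood cells should not express. It was 11.20, 10.72 and 10.71 on the tolerant and 10.73 and 10.80 on the syngeneic arrays, on the log2 scale. Relative to it Npy was at -2.67, -1.16 and -0.09 on the tolerant arrays, the last almost at the level, and at 5.98 and 9.24 on the syngeneic arrays. A signal at background gives only a bound, so with each tolerant array raised to its background level the tolerant group lay at least 181-fold below the syngeneic one. The bound was 107-fold with the 99th percentile as the background level. On the scale of the whole array, 325 of 26856 probes were brighter than Npy on syngeneic 1 and 15 on syngeneic 2, although brightness also depends on the probe. The signal on syngeneic 2 was close to the highest value of any probe, 20.88; saturation was not tested.

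The syngeneic arrays differed from each other too. Npy was 3.35 higher on syngeneic 2 than on syngeneic 1 on the log2 scale, or 10.2-fold. Over the 5419 probes above background on both, the median of that gap was 0.20 with an SD of 0.95. A larger gap was seen in 0.203% of them in the same direction and in 0.941% in either direction. Npy was chosen by these same values, so these shares are a description only. Syngeneic 2 stood apart from the other arrays over all probes, with correlations of 0.84 to 0.86 where the other 4 reached 0.89 to 0.92 with each other. With syngeneic 1 alone the Npy difference was -7.13 and the bound 56.7-fold; with syngeneic 2 alone they were -10.48 and 578-fold. Npy was thus far above background on either syngeneic array, while its size differed by an order of magnitude.

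Set against every probe on the array, the Npy difference was the second lowest of 26856. The probe below it was Hbb at -9.11, and the next above it was the unnamed probe 21861133 at -8.70, named after its value was seen. The median difference of all probes was 0.01, the central 98% lay between -1.83 and 1.68, and the highest was 4.60. A difference below -6 was reached by 14 probes and one above 6 by 0. The choice of Npy rests on this value, so its place in the order adds no support. As a background for the gene lists, 6 of 13428 probes tested, 0.0447%, were past an adjusted p of 0.05 in limma, and these 6 were lower in the tolerant group. An unadjusted p under 0.05 was reached by 721, or 5.37%. The count of 6 was 0 in each fit that lacked a tolerant array or syngeneic 2. In the fit that lacked syngeneic 1 it was 76, of which 34 were lower and 42 higher.

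**Figure D2:**
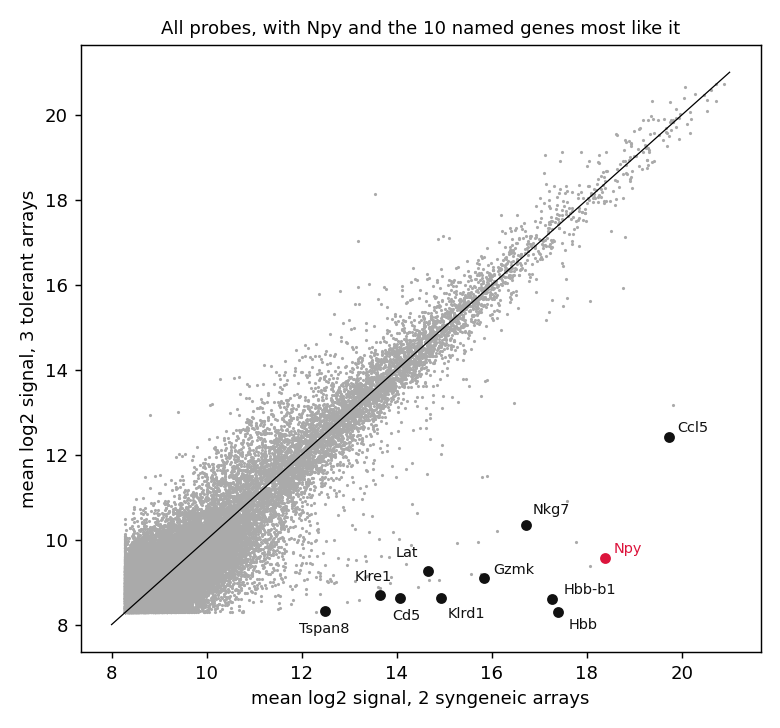
Mean log2 signal of every probe in the 2 syngeneic arrays (x axis) and the 3 tolerant arrays (y axis), each grey point a probe and the line equality. Npy (red) lies at 18.37 and 9.57, with the 10 named genes most like it (black) also below the line.

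The named genes with the pattern most like that of Npy were found by a centred distance, the root mean square difference between the log2 values of a probe and of Npy over the 5 arrays after each was centred on its own mean. Among 2861 named genes above background on at least 1 array the median distance was 4.53. The closest were Hbb-b1 at 1.00 and Hbb at 1.03, genes for beta chains of haemoglobin. Then came Klrd1 at 1.64, a lectin-like receptor of natural killer (NK) cells, Ccl5 at 1.74, a chemokine that attracts T cells and monocytes, and Gzmk at 1.79, a granule protease of cytotoxic lymphocytes. Cd5, a scavenger-type receptor on T cells, and Nkg7, a granule membrane protein, were both at 1.93. Lat, an adaptor of the T cell receptor, was at 2.18, Klre1, another NK receptor, at 2.23, and Tspan8, a tetraspanin of the cell surface, at 2.38. The next named gene, outside the list, was Gng11 at 2.52. The unnamed probe 21861133 was closer than any named gene, at 0.95. As this choice used the same arrays and values, it is a description without a test.

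Within that list the globins and Npy shared a step that the lymphocyte genes lacked. Hbb was at the floor of 8.29 on all 3 tolerant arrays and at 14.49 and 20.30 on syngeneic arrays 1 and 2. Hbb-b1 was at 8.29, 9.22 and 8.29 on the tolerant and at 14.54 and 20.00 on the syngeneic arrays. The probes of these close paralogs may cross-hybridise. From syngeneic 1 to syngeneic 2 the log2 signal differed by 5.80 for Hbb, 5.46 for Hbb-b1, 3.35 for Npy and 2.82 for Tspan8. For the other 7 genes that gap ran from -0.38 for Nkg7 to 0.94 for Cd5. Klrd1, for example, was at 8.53, 8.47 and 8.90 on the tolerant and at 14.72 and 15.12 on the syngeneic arrays. All 10 genes were above background on both syngeneic arrays, and 9 were at background on all 3 tolerant ones; Ccl5, at 13.10, 12.32 and 11.82, was the exception.

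**Figure D3:**
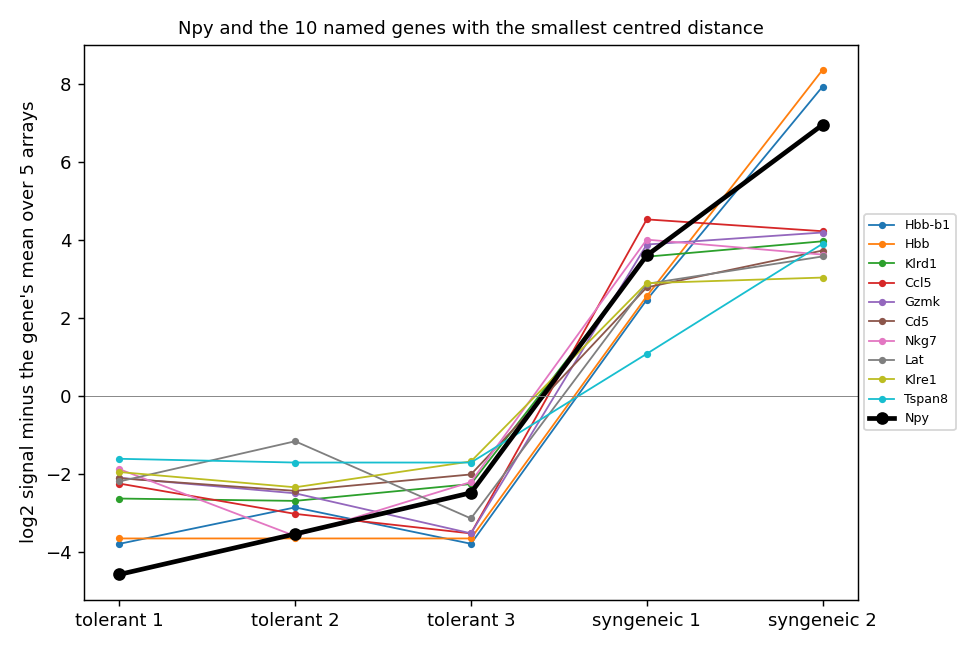
Log2 signal of Npy (black) and of the 10 named genes with the smallest centred distance, each minus its own mean over the 5 arrays; lines only join the points of a gene. The genes are low on the tolerant and high on the syngeneic arrays, and Npy, Hbb, Hbb-b1 and Tspan8 are higher still on syngeneic 2.

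The rest of the NPY family was dim. Of the other peptides, Ppy was at 11.87, 9.61 and 10.34 on the tolerant and 10.34 and 10.51 on the syngeneic arrays, above background on tolerant 1 only, and no probe is named for Pyy in the annotation used here. Npy2r, the receptor found on nerve endings that release the peptide, was at background on all 5 arrays, at 8.79, 8.29 and 8.29 in tolerant and 8.54 and 10.33 in syngeneic cells. Npy4r, which prefers pancreatic polypeptide, was at 9.20, 8.82 and 9.35 in tolerant and 9.45 and 10.85 in syngeneic cells, the last just above background. Npy5r, known for its part in feeding, was at background on all arrays, at 8.99, 8.29 and 8.95 in tolerant and 9.30 and 8.74 in syngeneic cells, and its second probe was too. No probe is named for Npy1r or Npy6r.

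Among 16 measured enzymes and chaperones that make or break down neuropeptides, 2 were above background on all 5 arrays. Furin, a proprotein convertase of the secretory pathway found in most cells, was at 16.30, 15.87 and 16.40 on the tolerant and 15.80 and 16.10 on the syngeneic arrays, with overlapping groups and a difference of 0.24. Xpnpep1, a cytosolic aminopeptidase that cuts before proline, was at 12.35, 12.90 and 13.34 in tolerant and 12.85 and 12.73 in syngeneic cells, a difference of 0.07. The sign of both turned under other scalings. Ide, the insulin-degrading enzyme, crossed the background level on syngeneic 1 only, at 10.76. The neuroendocrine convertase Pcsk2 and its chaperone Scg5, the inhibitor Pcsk1n, the carboxypeptidases Cpe, Cpd and Cpz, and Pam, which amidates peptides, were at background on all arrays. So were the convertase Pcsk6, the peptidases Mme, Fap, Xpnpep2 and Ece1, and Dpp4, which reached 10.66 on tolerant 3. Over the 20 measured family and processing genes without Npy the median difference was -0.11, within a range of -1.02 to 0.49. Of the 7 bright enough to be tested, 0 passed in limma and 0 had an unadjusted p under 0.05, a cut that 5.37% of all tested probes passed.

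**Figure D4:**
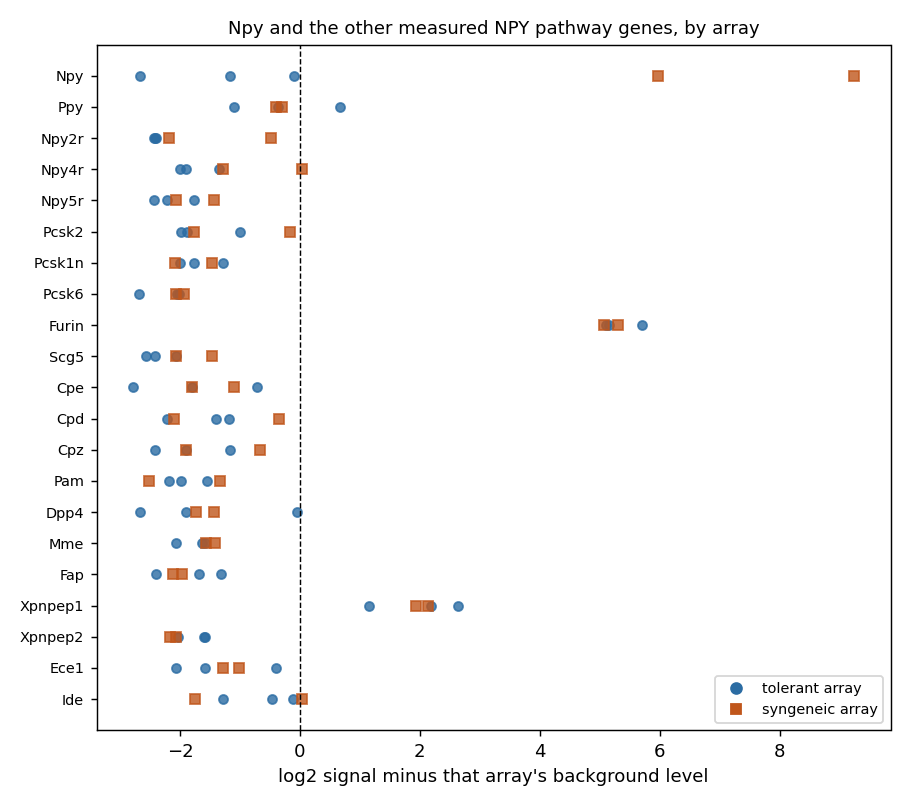
Log2 signal of Npy and of 20 other genes of its family and processing, minus the background level of the same array (dashed line at 0), with tolerant arrays as circles and syngeneic arrays as squares. Npy is the gene whose syngeneic points lie 5.98 and 9.24 above the line; Furin and Xpnpep1 are above it on all arrays.

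Most genes of sympathetic neurons were at background. For scale, of 5990 named genes 2861 besides Npy were above background on at least 1 array. Of 25 measured neuronal and neuroendocrine markers 23 were at background on all arrays, among them Chga, Chgb, Scg2, Gap43 and Stmn2. The others were Stx1a, a syntaxin of vesicle fusion also used by other secretory cells, and its partner Snap25, named after its values were seen. Stx1a was at 10.01, 10.74 and 9.21 in tolerant and 12.02 and 11.82 in syngeneic cells. Snap25 was above background on syngeneic 2 only, at 11.14. The Stx1a difference was -1.93 (SE 0.55, limma adjusted p = 0.745). Syn1, another member of the list, was at background on all arrays and differed by 0.58 (limma adjusted p = 0.91). Dbh, which makes noradrenaline, ran against Npy: it was at 10.14, 10.26 and 11.08 in tolerant cells, above background on tolerant 3 only, and at the floor on both syngeneic arrays (adjusted p = 0.446 with limma). Th, the first enzyme of that pathway, was at background on all arrays. Adra2c, an adrenergic receptor, was at background on all arrays as well, at 9.51 to 10.05 in tolerant and 8.88 and 8.98 in syngeneic cells. Of 19 measured genes of the catecholamine list 6 were above background on some array. Adra2b, another adrenergic receptor, was above it on all 5, at 12.34, 11.85 and 11.82 in tolerant and 11.13 and 12.19 in syngeneic cells, and Maob, which breaks down amines, was above it on 4, up to 12.43 (both named after their values were seen). In that list 0 of 8 tested genes passed and 1, Dbh, had an unadjusted p under 0.05. In the neuronal list 0 of 5 passed and 1, Stx1a, had such a p. Of all tested probes 5.37% had one. The summed signal of the neuronal list was 13.81 to 13.96 in tolerant and 14.06 to 14.28 in syngeneic cells on the log2 scale.

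Most other neuropeptide genes were at background, where 2861 of 5990 named genes, Npy aside, were above it on at least 1 array. Of 30 other neuropeptide genes measured, 25 were at background on all arrays, and 1, Ghrl (ghrelin, named after its values were seen), was above it on all 5, at 11.31 to 12.05 in tolerant and 12.10 and 11.88 in syngeneic cells. Gcg, the proglucagon gene, reached 11.73 on syngeneic 2 and was at background elsewhere, and Tac4, a tachykinin of blood-forming cells, was at background throughout, at most 10.76. Of 32 measured neuropeptide receptors and their partners, Sstr3, a somatostatin receptor, and Ramp1, a partner of the receptor for calcitonin gene-related peptide, were above background on all 5 arrays (named after their values were seen). Ramp3, another such partner, was above it on tolerant 2 at 10.72 and syngeneic 2 at 12.79 only. Nmur2, a neuromedin U receptor, was at background on all arrays. None of the 12 neuropeptides and 10 receptors tested passed in limma. An unadjusted p under 0.05 was reached by 0 and 1 of them, against 5.37% of all tested probes.

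Markers of other blood cells differed between the same arrays, and their part in the Npy values was not tested. Of 6 measured erythroid markers Hbb and Hbb-b1 were above background on both syngeneic arrays and on no tolerant one. The summed erythroid signal was 11.53 to 12.48 on the tolerant arrays and 15.59 and 21.16 on syngeneic arrays 1 and 2. Alas2, the first enzyme of haem synthesis in red cell precursors, Epor, the erythropoietin receptor, and Gata1, an erythroid and megakaryocyte transcription factor, were at background on all arrays. Slc4a1, the anion exchanger of the red cell membrane, was above it on tolerant 1 at 11.86 and syngeneic 2 at 10.94. In this list 0 of 4 tested genes passed in limma, and 3 had an unadjusted p under 0.05, against 5.37% of all tested probes. These 3, Hbb, Hbb-b1 and Gata1, had tolerant means of 8.29, 8.60 and 8.91, below the filter at 9.40. Only their syngeneic values brought them into the test, so that share is no fair measure for them.

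Platelet and megakaryocyte markers were mixed. Their summed signal overlapped between the groups, at 14.33 to 14.99 in tolerant cells and 15.27 and 14.45 on syngeneic arrays 1 and 2. On every array but syngeneic 2 that sum came mostly from Nfe2 and Tbxas1 (named after its values were seen), so it says little about the dimmer members. Tbxas1 was at 13.50, 13.33 and 13.85 in tolerant cells and 13.83 and 10.55 on syngeneic arrays 1 and 2. The median difference of the list was -0.26, against 0.01 for all probes. Of 15 measured members 5 were lower on every tolerant than on every syngeneic array, where 11.7% of all probes were, and 7 were at background on all arrays, Itgb3, Gp5 and Selp among them. Ppbp, a platelet chemokine, was above background on syngeneic 2 only, at 11.63, and at the floor of 8.29 on syngeneic 1. Nrgn, a calmodulin-binding protein abundant in platelets, was at 8.50, 8.29 and 8.29 in tolerant and 10.16 and 12.82 in syngeneic cells, above background on syngeneic 2 only. Nfe2, a transcription factor of megakaryocytes and red cell precursors, was at 12.89, 12.17 and 13.31 in tolerant cells and 13.64 and 8.77 on syngeneic arrays 1 and 2. None of 10 tested members passed in limma. An unadjusted p under 0.05 was reached by 4, against 5.37% of all tested probes: Nrgn at -3.13, Gata1 at -1.48, F2rl2, a thrombin receptor, at -1.43 and Tbxa2r, the thromboxane receptor, at -1.41, all with the lower mean in tolerant cells and the last 2 named after their values were seen. Gata1 was at background on all arrays, and the other 3 were above it on 1 syngeneic array each and on no tolerant one. The tolerant means of all 4 lay below the filter at 9.40, so only their syngeneic values brought them into the test. The share of all tested probes is thus no fair measure for them. No probe is named for Pf4, Itga2b or Gp9.

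The NK cell, T cell and neutrophil lists moved with Npy between the groups, while the B cell list ran the other way. The summed B cell signal of only 3 measured genes was 14.84 to 17.57 in tolerant and 12.63 and 14.41 in syngeneic cells, most of it from Cd79b. The summed NK cell signal was 13.54 to 14.03 in tolerant and 17.82 to 17.96 in syngeneic cells, and 11 of its 16 measured members were lower on every tolerant than on every syngeneic array, where 11.7% of all probes were. In limma 3 of the 13 tested passed as lower in tolerant cells, Klrd1, Gzmk and Klre1. Their tolerant means of 8.63, 9.10 and 8.69 lay below the filter at 9.40, so only their syngeneic values brought them into the test. Of all tested probes 0.0447% passed, a share that is no fair measure for genes admitted in this way. The T cell list gave 14.11 to 14.68 against 17.16 to 17.31, with 10 of 14 members fully apart. Of its 13 tested members 1, Cd5, passed as lower in tolerant cells, with its tolerant mean of 8.62 also below the filter. None of these calls held in the fits that lacked a tolerant array, lacked the filter on dim probes or used the replicate number as a block. The neutrophil list gave 15.42 to 17.44 against 19.68 and 21.16, with 7 of 10 members fully apart. Most of these sums came from S100a8 and S100a9 (named after their values were seen). S100a9 was at 16.23, 9.25 and 14.06 in tolerant cells, at background on tolerant 2, and at 19.11 and 20.51 in syngeneic cells. None of the 7 tested members of the list passed in limma. Pglyrp1, a bactericidal granule protein, differed by -3.80 (limma adjusted p = 0.257). Il1r2, the decoy receptor for IL-1, differed by -3.71 (limma adjusted p = 0.470).

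The myeloid label held for most of its markers but less so on syngeneic 2. Of 16 measured myeloid and monocyte markers 14 were above background on some array and 8 on all 5, including Lyz2, Cebpb, Cd14 and Nr4a1. Of the antigens used to sort, Cd80 was at background on all arrays and Cd86 was above it on 2 tolerant arrays and syngeneic 1. The integrin Itgam was above background on every array but syngeneic 2, where it was at 9.38, and so were Spi1, Ccr2 and Cebpa. The summed signal was 20.39 to 21.11 in tolerant and 19.69 to 20.14 in syngeneic cells, the reverse order to Npy. Most of it came from Lyz2, at 20.75, 20.48 and 19.75 in tolerant and 19.50 and 19.24 in syngeneic cells. Of the 16 measured members 13 had the higher mean in tolerant cells and 3 the lower. For Itgam, Spi1, Ccr2 and Cebpa that order came from syngeneic 2, as each was higher on syngeneic 1 than the tolerant mean. Cd14, a coreceptor for lipopolysaccharide, differed by 1.22 (adjusted p = 0.907 in limma) and the nuclear receptor Nr4a1 by 2.42 (adjusted p = 0.907). Of 14 tested members 0 passed or had an unadjusted p under 0.05, against 5.37% of all tested probes with such a p.

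**Figure D5:**
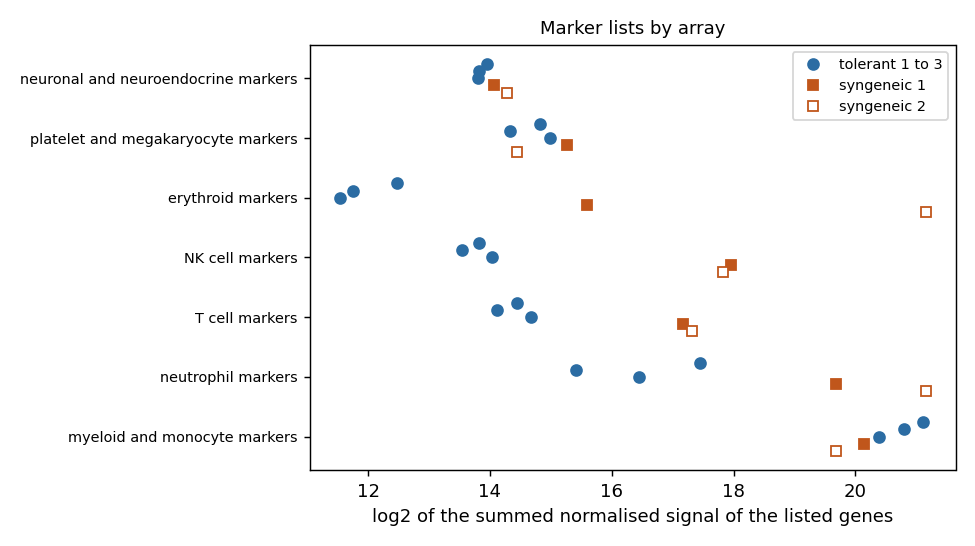
Log2 of the summed normalised signal of each marker list drawn, on each array, tolerant as circles, syngeneic as squares (syngeneic 2 open). The B cell list is not drawn. Erythroid, NK, T cell and neutrophil sums are higher on both syngeneic arrays, as Npy is, while platelet sums overlap and myeloid sums are lower.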

How the data were processed

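RNA was measured on a 1-colour chemiluminescent array, the rat genome survey microarray of Applied Biosystems. The raw table that the authors deposited holds a linear intensity per probe and array, not normalized between arrays. The sources used here do not name the scanner software or say whether background was subtracted. In the deposited series matrix the log2 values match the quantile-normalised raw intensities to within 0.000102. Array medians were 563 to 798 raw, and 22.6% to 27.2% of probes lay above background; the number of arrays limits the precision.

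Groups came from the sample titles. After quantile normalization of the raw intensities, low values were set to the 10th percentile (log2 8.29) and logarithms taken; 1 probe lacking a signal was dropped. The 13428 probes with a mean at or above the median of all (9.40) were tested with limma 3.58.1 in R 4.3.3 and Benjamini-Hochberg adjustment; the fit was tested on simulated data. A gene dim in 1 group could pass the filter on the mean only through the other group, so shares of tested list members depend on it. Of several probes for a gene the brightest was used. Symbols come from an old platform annotation (70 probes have several, 20683 are unlisted), with 6081 Entrez identifiers matched to RefSeq; promoters are RefSeq's on GRCr8.

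Npy and the gene lists were chosen with earlier results of these data known, as was the background level. Named genes were every measured family, receptor and processing gene, the 10 named genes nearest to Npy, and the 2 members of each other list with the smallest p plus any past the threshold; other names are illustrations chosen after their values were seen. Alternatives were other scalings and floors, no filter, the replicate number as a block, and each array left out.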

Additional observations from a re-analysis of the deposited data

How the results depend on the processing

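The Npy difference kept its sign in all 11 alternatives tried, from -10.48 to -7.13, the ends being the values without syngeneic 1 and without syngeneic 2. Npy was chosen by the values of these same arrays, so the kept sign adds no support. Its bound ranged from 56.7-fold to 578-fold when single arrays were left out. In the limma fits with a lone syngeneic array, that array is assumed to vary like the others, an assumption the bound does not use. Without normalization the median of all probes shifted to -0.22 and Npy was -8.90 relative to it. Between 8 and 10 of the 10 genes most like Npy were shared across the alternatives. No family or processing gene passed the threshold in any alternative that kept both syngeneic arrays. Without a tolerant array, with the block or without the filter, no probe of any kind passed, so the count could not differ there.

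The 6 probes past the threshold became 53 under median scaling, 81 without normalization, 0 without the filter on dim probes and 0 to 76 when an array was left out. The 4 members of the other lists became 12, 18, 0 and 0 to 8 in the same order. With the replicate number as a block the counts were 0 and 0, and Npy differed by -9.33. Deviations from the group mean had correlations of -0.08 and 9e-04 between samples of the same number. With so few syngeneic arrays, their deviations from the group mean are mirror images of each other. The correlations therefore rest on the same syngeneic deviations and cannot decide whether the numbers pair the samples. Furin turned to -0.10 under median scaling and -0.31 without normalization. Xpnpep1 turned to -0.17 under median scaling, -0.38 without normalization and -0.17 with the block, and ran from -0.17 (without tolerant 3) to 0.33 (without tolerant 1) when arrays were left out. The cause of these changes was not tested.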

Other observations

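The measured B cell genes had higher means on the tolerant arrays, and none passed in limma. Cd79b, which signals for the B cell receptor, was at 14.72, 17.47 and 15.62 on the tolerant and 12.38 and 14.00 on the syngeneic arrays. Fcer2 (CD23) was above background on 2 tolerant arrays and on no syngeneic one. Ebf1 (named after its values were seen) overlapped between the groups, at 10.29, 12.66 and 11.54 on the tolerant and 8.85 and 12.33 on the syngeneic arrays. All 3 measured members of the B cell list had a positive difference. In limma 0 passed and 2 had an unadjusted p under 0.05, against 5.37% of all tested probes. Of 11 measured markers of eosinophils, basophils and mast cells, 8 were at background on all arrays. Hdc, which makes histamine, and Cma1, a mast cell protease, were above background on syngeneic 2 only, at 12.34 and 12.12, and at 9.79 and 9.43 on syngeneic 1. Of the 5 tested in that list 0 passed in limma and 1 had an unadjusted p under 0.05, against 5.37% of all tested probes.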
